A study of Lissachatina fulica and Mizuhopecten yessoensis with 12 samples.

Results

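Genes annotated as the T-box factors TBX20, TBX2 and TBX10 and the Iroquois factor IRX4 were followed through the atria and ventricles of adult mollusc hearts. They were chosen by name, with earlier results of these data known. Every row of the deposited tables whose gene symbol was exactly one of these names was taken. This gave 5 rows of 6081, all of them among the 4195 rows of the scallop (Mizuhopecten yessoensis, a bivalve), and 0 among the 1886 rows of the giant African snail (Lissachatina fulica, a gastropod). TBX20 had 2 rows (Miz0039890.1 and Miz0039900.1), and TBX2 (Miz0095170.1), IRX4 (Miz0050720.1) and TBX10 (Miz0154390.1) had 1 row each. Hearts labelled WT were used in both species, and each chamber of each species gave 3 libraries, 12 in all, of poly-A selected RNA. The series text calls the hearts adult, and the labels give no exact age, sex or treatment. The labels also do not say whether libraries came from separate or pooled animals. Each species was tested on its own, so every p-value below speaks for the scatter among the 6 libraries of its species and no further. That scatter may be technical.

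T-box proteins bind DNA through a shared domain, the T-box, and switch genes on or off. In mouse and fly, TBX20 and its fly relatives are needed to build the heart, and in mouse and chick TBX2 represses the genes of working chamber muscle in the heart regions that do not form chambers. TBX10 belongs to the same group of T-box genes as TBX1. Iroquois factors are homeodomain proteins, and in chick and mouse IRX4 is made in the ventricle, where in chick it turns on a ventricular and turns off an atrial myosin gene. The scallop symbols are names carried over from other animals and were not checked as orthologs, since the tables hold no sequence.

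Levels are normalized counts, that is gene reads divided by 1 size factor per library, with no correction for gene length, so levels are compared between chambers and never between genes. Log2 fold changes are ventricle over atrium on the log2(normalized count + 1) scale, with SE, and a gene passed the threshold with a limma adjusted p under 0.05 over the rows tested and at least a 2-fold change. The authors had listed only genes with an unadjusted p under 0.05 and at least a 2-fold change in their own test. A listed gene had therefore already been selected on this contrast, and the tests below describe its size and spread rather than give independent evidence. Adjustment over rows selected in this way corrects little, so a limma adjusted p below gives no false discovery rate among all genes. In scallop, 45.6% of the 3927 tested rows passed toward the ventricle and 42.0% toward the atrium, 87.6% in all. All 5 T-box and Iroquois rows were tested and passed, 3 toward the ventricle and 2 toward the atrium, and in all 5 the chambers did not overlap, as in 87.8% of tested rows (47.7% with the ventricle higher, 40.1% with the atrium higher). In the authors' deposited table, where the same limits were met by 40.0% of rows toward the ventricle and 28.4% toward the atrium (68.4% in all), 4 of the 5 met them. These shares are close to what the table holds throughout, so the count of 5 says nothing particular about these genes. With 3 libraries against 3, an exact 2-sided permutation test of a single gene cannot go below 0.1, and it gave 0.1 for each of the 5. Because these were bulk samples, fewer cells of a type and less RNA per cell cannot be told apart.

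**Figure D1:**
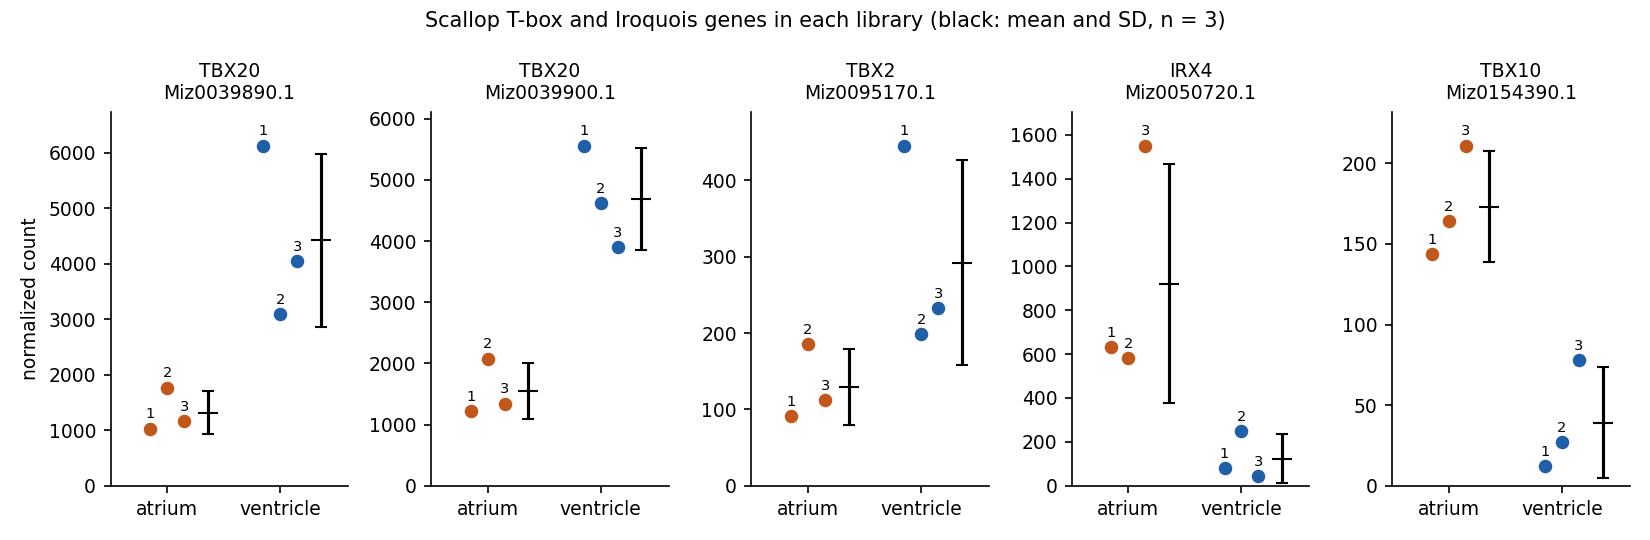
Normalized count of each T-box and Iroquois row in each scallop library, numbered by replicate, with the mean and SD (n = 3) in black on an axis from 0. Both TBX20 copies and TBX2 lie higher in ventricles, with TBX2 at 185 in the highest atrium and 198 in the lowest ventricle, and IRX4 and TBX10 lie higher in atria.

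Both TBX20 copies were about 3-fold higher in the ventricle. Miz0039890.1 stood at 1031, 1766 and 1159 normalized counts in atria 1, 2 and 3 and at 6132, 3089 and 4044 in ventricles 1, 2 and 3. Every ventricle lay above every atrium, and the lowest ventricle was 1.75 times the highest atrium. The means were 1318 ± 393 and 4421 ± 1556 (SD, n = 3), a log2 fold change of 1.73 ± 0.36 with a 95% interval from 0.92 to 2.53 (limma adjusted p = 0.00481). Miz0039900.1 stood at 1221, 2074 and 1343 in atria and at 5562, 4619.6 and 3901 in ventricles. Atrium 2 was the highest atrium and ventricle 1 the highest ventricle in either copy, while the lowest ventricle was ventricle 2 in the first copy and ventricle 3 in the second. The means of the second copy were 1546 ± 461 and 4694 ± 833 (SD, n = 3), a log2 fold change of 1.63 ± 0.33 (95% interval from 0.90 to 2.35, limma adjusted p = 0.00408). The authors' deposited table gave 1.746 ± 0.41 and 1.602 ± 0.36 for these copies, with adjusted p-values of 0.000406 and 0.000211.

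The change of TBX20 was larger than that of the median tested row, by 0.71 and 0.61 on the log2 scale, which 1 scaling factor per library leaves nearly as it is by construction. As an alternative, libraries were rescaled to equal medians of 61 cytosolic ribosomal protein rows, themselves listed only for a chamber difference. That rescaling shifted the median over tested rows from 1.01 to -0.21 on the log2 scale. Under it the changes of TBX20 were 0.50 and 0.40 and neither passed (limma adjusted p = 0.368 and 0.358), so the size of the ventricular rise depended on the scaling.

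**Figure D2:**
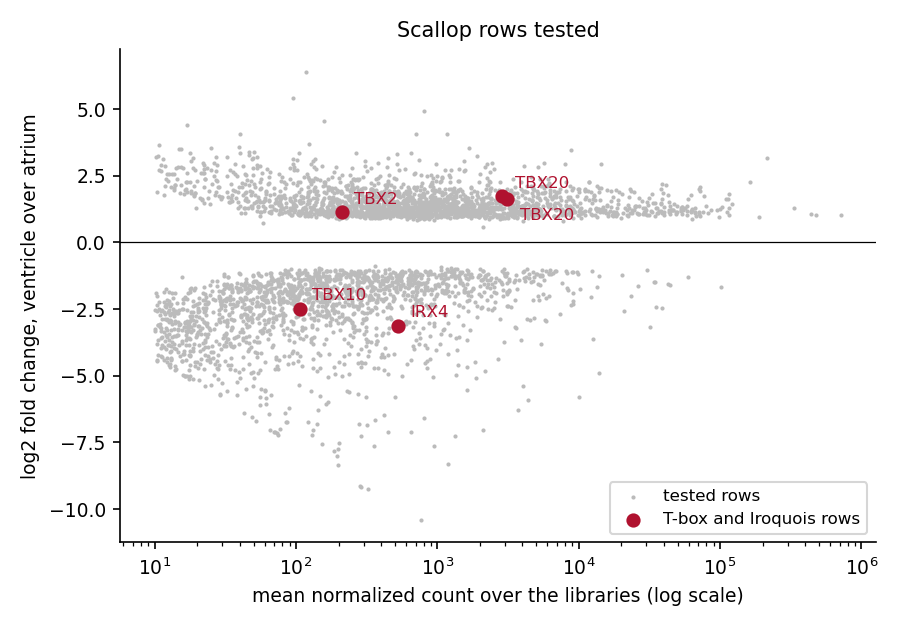
Log2 fold change (ventricle over atrium) against mean normalized count (log scale) for the 3927 tested scallop rows in grey, with the 5 T-box and Iroquois rows in red. The band around 0 is sparse because only genes past the authors' fold limit were listed, and the T-box and Iroquois rows lie inside the grey cloud, with 28.9% of the rows that passed toward the ventricle changing more than TBX20 Miz0039890.1 and 27.9% of those that passed toward the atrium changing more than IRX4.

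The split of TBX20 reads between the copies was compared across libraries, and without gene lengths it does not say which copy is more expressed. Miz0039890.1 took 45.8%, 46.0% and 46.3% of TBX20 reads in atria 1, 2 and 3, where the exact 95% binomial intervals overlapped (43.9 to 47.6%, 44.4 to 47.6% and 44.6 to 48.0%). In ventricles it took 52.4% (51.5 to 53.4%), 40.1% (38.7 to 41.4%) and 50.9% (49.8 to 52.0%). The atria thus gave 1 split within counting error, and the ventricles lay on both sides of it, with ventricle 2 below and ventricles 1 and 3 above every atrium. The chambers overlapped in the split, at 46.0 ± 0.28% and 47.8 ± 6.7% (SD, n = 3, exact permutation p = 1.0). With 3 libraries against 3, the test cannot show that the chambers are equal. The intervals cover counting error only. The identifiers of the copies are numbered next to each other, but the tables give neither positions nor sequences, so reads of similar stretches could have been shared or split between them in counting.

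**Figure D3:**
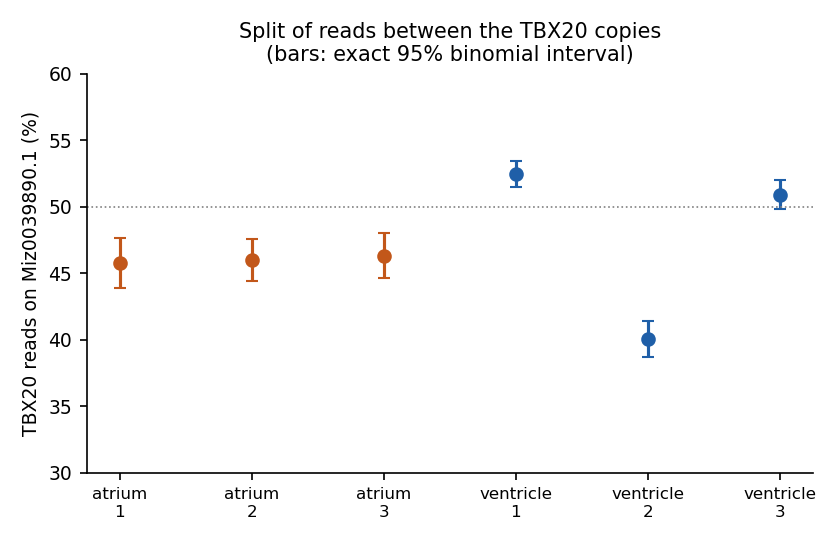
Share of TBX20 reads assigned to the copy Miz0039890.1 in each scallop library, in percent, with exact 95% binomial intervals and a dotted line at an even split; the axis runs from 30 to 60%. The 3 atria lie between 45.8% and 46.3%, and the ventricles lie at 52.4%, 40.1% and 50.9%.

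TBX2 was about 2-fold higher in the ventricle, by a narrow margin. It stood at 91.0, 185 and 112 normalized counts in atria and at 446, 198 and 233 in ventricles. The lowest ventricle was only 1.07 times the highest atrium, and ventricle 1 lay well above ventricles 2 and 3. The means were 129 ± 49.5 and 292 ± 134 (SD, n = 3), a log2 fold change of 1.14 ± 0.50 (95% interval from 0.03 to 2.25, limma adjusted p = 0.0499). This was 0.13 above the median change of all tested rows. The limma p before adjustment was 0.0448, so adjustment over rows already selected on this contrast changed it little. In the authors' deposited table TBX2 did not pass, with an adjusted p of 0.0875 and an unadjusted p of 0.0196. That adjusted p and the limma one are not alike. TBX2 also failed to pass without any 1 of the 3 atria or without ventricle 1. The limma adjusted p was then 0.174, 0.0604, 0.130 and 0.156 in that order. Under the ribosomal rescaling, which moves all rows of a library by 1 factor, its log2 fold change was -0.08, still 0.13 above the median row.

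IRX4 was higher in the atrium, with the largest fold change of the 5 rows. It stood at 633, 581 and 1551 normalized counts in atria and at 79.6, 249.6 and 42.2 in ventricles. Atrium 3 was well above the other atria, ventricle 2 was the highest ventricle, and the lowest atrium still stood 2.33 times above ventricle 2. The means were 922 ± 546 and 124 ± 111 (SD, n = 3), a log2 fold change of -3.12 ± 0.66 or 8.68-fold (95% interval from 3.17-fold to 23.8-fold, limma adjusted p = 0.00481). The ventricular levels rested on 72, 166 and 45 reads, so the 5.91-fold range among ventricles exceeded their counting error (exact 95% Poisson intervals of 56.3 to 90.7, 142 to 193 and 32.8 to 60.2 reads). The difference was 14.1-fold without ventricle 2 and 5.84-fold without ventricle 3, and it passed in each of the 6 fits without 1 library (limma adjusted p from 0.00170 to 0.0237). The authors' deposited table gave a log2 fold change of -2.90 ± 0.67 (adjusted p = 0.000385).

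TBX10 was likewise higher in the atrium. It stood at 144, 164 and 211 normalized counts in atria and at 12.2, 27.1 and 77.9 in ventricles, from 11, 18 and 83 reads. The atria lay close together, with a coefficient of variation of 19.95%, whereas that of the ventricles was 88.3%, and ventricle 3 stood nearest the atria. The means were 173 ± 34.5 and 39.0 ± 34.5 (SD, n = 3), a log2 fold change of -2.48 ± 0.69 or 5.58-fold (95% interval from 1.95-fold to 16.0-fold, limma adjusted p = 0.0123). The difference was 8.94-fold without ventricle 3 and 3.65-fold without ventricle 1, with limma adjusted p from 0.00162 to 0.0460 over the 6 fits without 1 library. The authors' deposited table gave -2.14 ± 0.68 (adjusted p = 0.0153).

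Among atria, atrium 3 was the highest for both IRX4 and TBX10, but the highest ventricle was not the same. Ventricle 2 was the highest ventricle for IRX4 and ventricle 3 for TBX10, so that TBX10 had 15.3 and 10.8 reads per 100 IRX4 reads in ventricles 1 and 2 and 184 in ventricle 3. In atria the same ratio was 22.7, 28.3 and 13.6, and the chambers overlapped (exact permutation p = 0.9, adjusted over 9 ratios 1.0).

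Ratios within a library do not depend on size factors and set the atrial against the ventricular genes directly. Per 100 TBX20 reads of both copies together, IRX4 had 28.1, 15.1 and 62.0 reads in atria and 0.681, 3.24 and 0.532 in ventricles, a mean difference of 28.2-fold. TBX10 had 6.38, 4.28 and 8.44 reads per 100 in atria and 0.104, 0.351 and 0.980 in ventricles, a mean difference of 18.6-fold. In both ratios the chambers did not overlap, and the exact permutation p was 0.1, the smallest possible (0.18 adjusted over 9 ratios). TBX2 had 4.04, 4.83 and 4.49 reads per 100 TBX20 reads in atria and 3.81, 2.58 and 2.93 in ventricles, lower in every ventricle by 1.45-fold on average (exact permutation p = 0.1, 0.18 adjusted over 9 ratios). After quantile normalization the order of the changes was the other way, at 1.51 for TBX2 and 1.13 and 1.004 for TBX20 on the log2 scale. Since the 5 rows had been selected for their chamber difference, these ratios are descriptions.

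Of 5 muscle marker rows, 4 passed toward the ventricle and unc-22 did not pass (limma adjusted p = 0.137), where 45.6% of all tested rows passed that way. Their median log2 fold change was 1.304, against 1.01 over all tested rows. The count was 2 without any 1 of the atria, 1 under the further TMM scaling or quantile normalization, and 0, with 2 rows turned, under the ribosomal rescaling. Of the muscle marker list, 5 rows of 4 symbols among 36 symbols were listed (2 rows of the myosin light chain Mlc1, the tropomyosin Tm2, the troponin TNNT2 and the giant muscle protein gene unc-22), none at 0 in either chamber, so contractile muscle markers were present in both. Their summed level was 271093 to 299766 normalized counts in atria and 569561 to 1005014 in ventricles. Because these rows were listed for a chamber difference and all lay toward the ventricle, dividing by them shrinks a ventricular difference and enlarges an atrial one by construction, so the ratios to them are descriptions only. Per 100000 reads on these muscle markers, TBX20 had 831, 1312 and 835 reads in atria and 1164, 1024 and 1395 in ventricles. These values overlapped, with atrium 2 above ventricles 1 and 2, and the mean difference was 1.22-fold. TBX2 had 33.6, 63.3 and 37.4 reads in atria and 44.4, 26.4 and 40.9 in ventricles on the same measure, again overlapping. IRX4 differed 23.1-fold on this measure, from 198 to 517 reads in atria and from 7.41 to 33.2 in ventricles, and TBX10 15.2-fold, from 53.0 to 70.4 and from 1.21 to 13.7, without overlap.

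**Figure D4:**
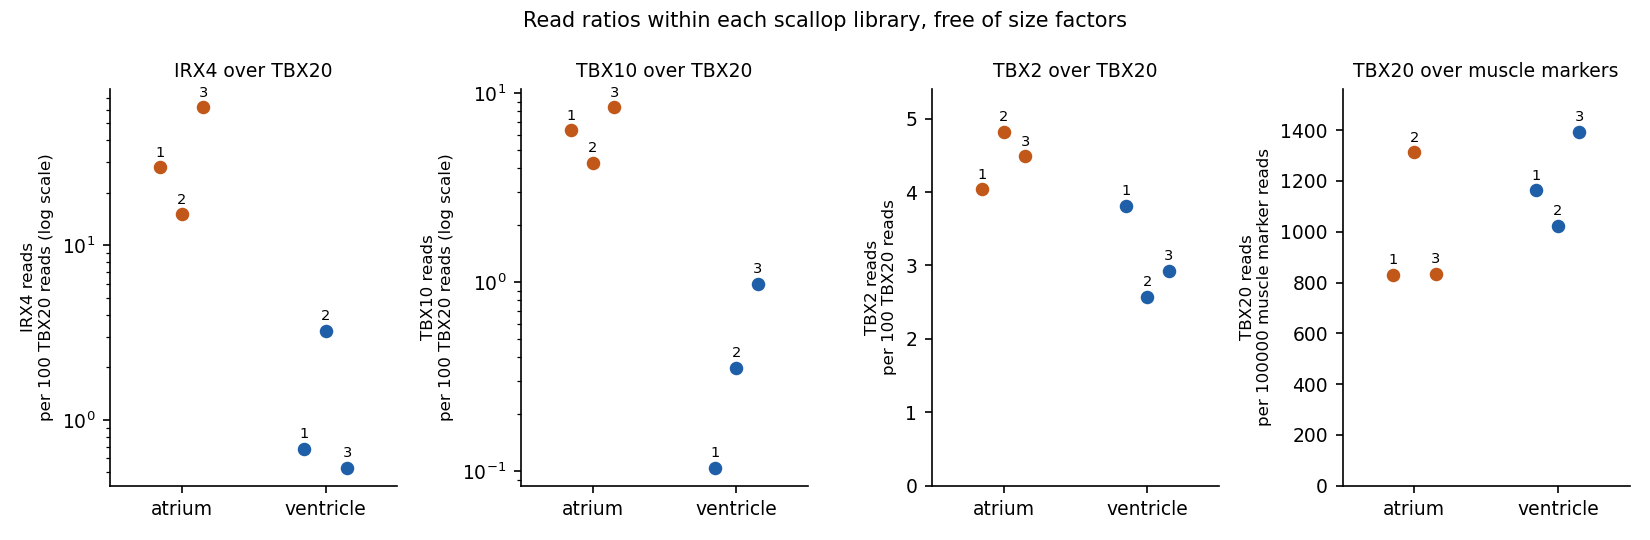
Read ratios in each scallop library, numbered by replicate: IRX4, TBX10 and TBX2 reads per 100 TBX20 reads, and TBX20 reads per 100000 muscle marker reads (log axes for IRX4 and TBX10, axes from 0 for the others). The chambers separate for the first 3 ratios and overlap for TBX20 over muscle markers, where atrium 2 stands at 1312 against 1024 to 1395 in ventricles.

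Most tested marker rows of other cell types passed toward the atrium, against 42.0% of all tested rows. Their part in the results for IRX4 and TBX10 was not tested. Nerve markers were represented by 8 rows of 6 symbols among 31, with a summed level of 5315 to 5836 in atria and 1707 to 2712 in ventricles. Of 7 tested, 6 passed toward the atrium and CHAT did not pass, at 207 ± 50.1 in atria and 512 ± 486 in ventricles (SD, n = 3). Hemocyte and immune markers had 8 rows of 8 symbols among 30, at 21877 to 28794 and 7194 to 9116, with 5 of 7 tested toward the atrium and 2 (MRC1 and C1QL2) toward the ventricle. Cilia markers had 3 rows of 3 symbols among 20, at 884 to 1192 and 208 to 514, all 3 past the threshold toward the atrium. Epithelium and excretion markers had 14 rows of 7 symbols among 24, and of 13 tested 11 passed toward the atrium and 1 toward the ventricle. Their sum was nevertheless higher in ventricles, at 7912 to 9861 and 11396 to 28550, through 1 LRP2 row at 1423 ± 624 and 16148 ± 9783 (SD, n = 3). Atrial calls fell to between 2 and 3 for hemocyte rows without any 1 library other than ventricle 3, to between 4 and 6 for epithelial rows without atrium 1, atrium 2 or ventricle 1 and to 5 under quantile normalization or in the authors' deposited test, to 1 for cilia rows without any 1 of the atria or ventricle 1, and to 3 for nerve rows under quantile normalization. In the ventricles 1 nerve row (GRIN2B) and 1 epithelial row (NPHS1) were at 0 in every library, and no row of these lists was at 0 in every atrium.

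The genes with the most similar profiles differed between the T-box and Iroquois rows. Likeness was the root-mean-square distance between log2 profiles centred on their mean over the 6 libraries, a description over 2410 other rows with a symbol. Nearest to TBX20 Miz0039890.1 were PIPOX, a peroxisomal oxidase (distance 0.13, Pearson r = 0.99), PDGFB, a platelet-derived growth factor (0.19, r = 0.98), and AIMP2, a scaffold of the tRNA synthetase complex (0.19, r = 0.98). PIPOX stood at 258 ± 81.9 in atria and 826 ± 220.2 in ventricles (SD, n = 3). Nearest to Miz0039900.1 were the inner mitochondrial membrane gene GHITM (0.11, r = 0.99), the mitochondrial ribosomal protein gene MRPS26 (0.12, r = 0.997) and Su(P) (0.15, r = 0.99). The copies themselves lay at a distance of 0.23 (r = 0.97), each ranking below other genes in the profile of the other, at ranks 10 and 28. Nearest to TBX2 were FTSJ3, which acts in ribosomal RNA processing (0.11, r = 0.99), HPDL (0.18, r = 0.97) and PDSS1, an enzyme of coenzyme Q synthesis (0.18, r = 0.98).

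On the atrial side, the nearest profiles to IRX4 lay at larger distances than those named for the other rows. Their correlations were within the range of the others. Its nearest profiles were the Wnt inhibitor gene APCDD1 (distance 0.42, r = 0.97), the DM-domain transcription factor DMRTA2 (0.42, r = 0.97) and FAM221A (0.44, r = 0.98). DMRTA2 stood at 555 ± 323 in atria and 66.0 ± 45.1 in ventricles (SD, n = 3). The other nearest rows had low counts, APCDD1 at 18.7 ± 5.2 and 1.37 ± 1.52 and FAM221A at 29.7 ± 10.8 and 3.88 ± 5.78 (SD, n = 3). TBX10 was nearest to DNAH5, an axonemal dynein of motile cilia (0.15, r = 0.997), at 356 ± 83.9 and 80.2 ± 57.6 (SD, n = 3), followed by the cell surface gene flrt2 (0.19, r = 0.99) and SERINC5 (0.25, r = 0.99). DNAH5 was also 1 of the 3 cilia marker rows. IRX4 and TBX10 lay at a distance of 1.34 from each other (r = 0.68). All of these rows share the same 6 libraries and a chamber difference for which they were listed, so high correlations were common.

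Of 37 other T-box and Iroquois symbols searched, 0 were listed in scallop. This count is no independent result, since the names were chosen with earlier results known. The 5 rows followed were all the scallop rows whose symbol contained TBX or began with IRX. Of 36 other cardiac transcription factor symbols, 4 were listed, with 1 past the threshold toward the ventricle and 3 toward the atrium (median log2 fold change -2.51, against 1.01 over all tested rows). The ventricular gene was the homeobox factor NKX3-2, at 4.78 ± 8.27 in atria and 232 ± 136 in ventricles (SD, n = 3). FOXF1, a forkhead factor of vertebrate visceral mesoderm, stood at 1544 ± 92.7 in atria and 146 ± 156 in ventricles (SD, n = 3), with limma giving -3.94 ± 0.65 on the log2 scale (adjusted p = 0.00173). Ventricle values of FOXF1 ranged from 42.2 to 325, all below the lowest atrium at 1480.4. FOXC1, another forkhead factor, stood at 20.6 ± 5.4 in atria with 0 reads in the ventricles, at least 17.4-fold lower (against a floor of 3 reads over the 3 libraries), and the median was -2.51 again with FOXC1 at this bound. HES1, a repressor acting downstream of Notch, completed the list at -1.08 ± 0.43 on the log2 scale (limma adjusted p = 0.0359), and lost its call on leaving out any single atrium or ventricle 1, with the replicate number as a block, or in the authors' deposited test. FOXC1 did not pass under quantile normalization. Of 22 corepressor and cofactor symbols, RERE, a nuclear receptor corepressor, was listed, at 546 ± 31.8 and 213 ± 198 (SD, n = 3; limma adjusted p = 0.0223). Without any 1 library other than ventricle 3 it did not pass, nor in the authors' deposited test or edgeR.

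A list of signalling genes, called upstream signals here, was searched as well, and whether each acts on these factors was not checked. Of 30 symbols 9 were listed, in 11 rows, with 9 past the threshold toward the atrium, 1 toward the ventricle and 1 not past it, beside 42.0% and 45.6% of all tested rows in those directions (median -1.40, against 1.01). The largest changes were those of WNT4, at 564 ± 138 in atria with 0 reads in the ventricles, and SHH, at 386 ± 161 and 0.63 ± 1.08 (SD, n = 3). Both passed toward the atrium in all 16 alternatives. Among the other atrial rows was the Notch ligand DLL1, at 1019 ± 186 against 110 ± 9.1 in the copy Miz0005350.1 and at 2063 ± 104 against 815 ± 291 in Miz0034480.1 (SD, n = 3, limma adjusted p = 0.000301 and 0.00873). The Wnt ligand WNT11 stood at 281 ± 33.2 and 12.9 ± 10.2 (SD, n = 3; limma adjusted p = 0.00122), and BMP5, a bone morphogenetic protein of the family that induces TBX2 and TBX20 in vertebrate hearts, at 4239 ± 964 and 1732 ± 172 (SD, n = 3; limma adjusted p = 0.00770). The ventricular row was ALDH1A1, a retinaldehyde dehydrogenase, at 2880.1 ± 1455 and 9962 ± 7602 (SD, n = 3; limma adjusted p = 0.0187), which did not pass without atrium 3 or ventricle 1 or under a further TMM scaling, quantile normalization or the ribosomal rescaling. Atrial calls in this list fell to 6 without atrium 2 or without ventricle 2.

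In snail hearts 0 rows carried any of the T-box or Iroquois symbols searched, so neither a level nor a chamber difference can be given, and the species could not be compared for these genes. Only genes selected by the authors' test were listed, and a gene outside the table may be expressed at any level. Among the other cardiac transcription factor symbols 5 snail rows were listed and 4 tested, with 1 toward the ventricle and 3 toward the atrium (median -1.15, against -1.22 over all tested snail rows). In snail 37.0% of the 1489 tested rows passed toward the ventricle and 46.9% toward the atrium. HAND2, a basic helix-loop-helix factor of ventricular growth in mouse, stood at 293 ± 88.2 in snail ventricles with 0 reads in the atria, at least 409-fold higher by the same floor. HEY1, a Notch-dependent repressor that marks atria in mouse, stood at 84.4 ± 12.4 in snail atria and 4.46 ± 1.96 in ventricles, and GATA6 at 376 ± 27.6 and 163 ± 40.5 (SD, n = 3; limma adjusted p = 0.000615 and 0.00563). Snail HES1 stood at 470.3 ± 88.4 and 220.5 ± 25.5 (SD, n = 3; limma adjusted p = 0.00626), and was the 1 gene of this list past the threshold in both tables, toward the atrium in each. Without snail atrium 1 it did not pass, and scallop HES1 did not pass in the authors' deposited test (adjusted p = 0.0534). Of the upstream signals 5 snail rows were tested, with 1 toward the ventricle, 3 toward the atrium and 1 not past the threshold (median -2.24). ALDH1A1, the symbol of the ventricular row in scallop, passed toward the atrium in snail. Afu017802 stood at 730 ± 218 in atria and 46.5 ± 24.2 in ventricles (SD, n = 3, limma adjusted p = 0.000678). Afu002633 stood at 41.2 ± 38.4 and 3.95 ± 3.47 (SD, n = 3, limma adjusted p = 0.0384) and passed in 9 of 15 alternatives. BMP10, a bone morphogenetic protein of trabecular muscle in mouse, had rows in both directions, Afu015655 at 84.2 ± 30.4 in atria and 3010.1 ± 1652 in ventricles and Afu004624 at 3454 ± 208 and 749 ± 221 (SD, n = 3; limma adjusted p = 0.000499 and 0.000869).

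**Figure D5:**
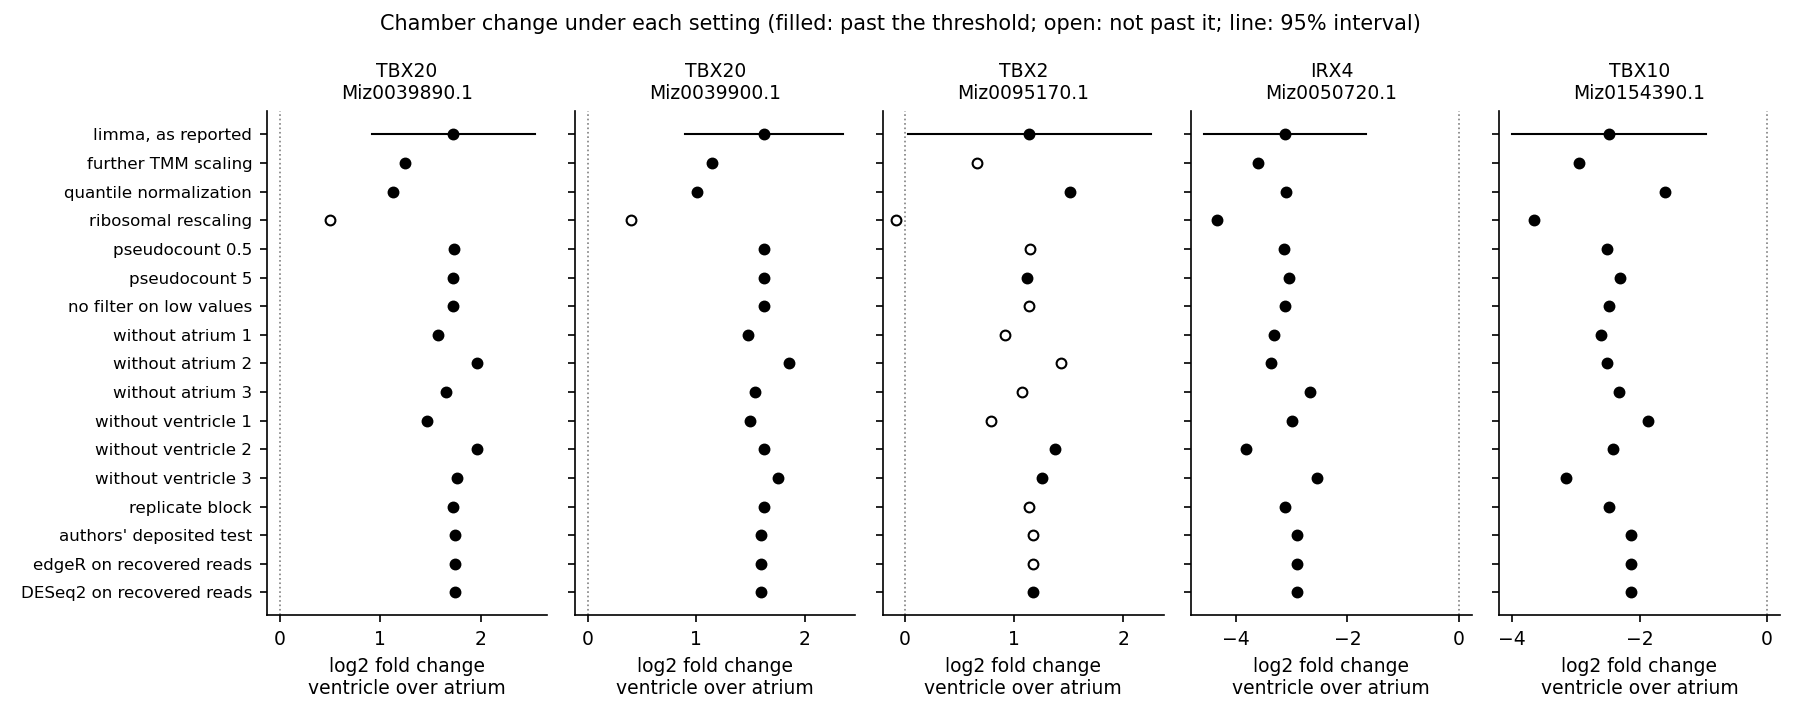
Log2 fold change (ventricle over atrium) of each T-box and Iroquois row under each processing setting, one row per setting; filled points passed the threshold, open points did not, and the line on the top row is the 95% interval. IRX4 and TBX10 are filled throughout, both TBX20 copies are open only under the ribosomal rescaling, and TBX2 is open in 11 of 16 alternatives.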

How the data were processed

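Each species had 1 deposited table. The unit of its library columns is a signal: normalized counts, deposited by the authors as gene reads over 1 size factor per library. All values were whole multiples of 1 step per library, within 0.01 read, so whole reads were recovered. Per the file headers, the tables also hold the authors' log2 fold changes with SE, test score and p-values. Tools named, per the submitters' processing notes, are DESeq2 1.20.0, StringTie 1.3.3b, HISAT2 2.0.5 and featureCounts 1.5.0, with no role or order. Genome build, annotation and strand setting are not given in the sources used here. Reads on listed genes numbered 10120508 to 21526834 per scallop library and 606309 to 1165104 per snail library.

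Rows with a mean of at least 10 were fitted within a species with limma 3.58.1 (R 4.3.3, mean-variance trend) on log2(normalized count + 1), with Benjamini-Hochberg adjustment over all of them. The fits were also run on simulated counts. These were not selected for a chamber difference as the listed rows were, so those runs do not bear on the calls given here. Alternatives were a further TMM scaling, quantile normalization, a ribosomal rescaling, other pseudocounts, no filter, each library left out, a replicate block, the authors' test, and edgeR 4.0.16 and DESeq2 1.42.0 on the recovered reads, the last pair chosen after seeing the data. Named genes were all rows of the 4 symbols, the 3 rows nearest to each in profile, and up to 8 rows past the threshold per list. Members and lists were chosen with earlier results of these data known.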

Additional observations from a re-analysis of the deposited data

How the results depend on the processing

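All 5 scallop rows passed the threshold in the reported fit. The count was 2 under the ribosomal rescaling, where TBX20 and TBX2 were lost. It was 4 or 5 under the other alternatives, also in the fits without 1 library. The ribosomal rescaling moves all rows of a library by 1 factor, and which scaling is right was not tested. IRX4 and TBX10 kept their direction and passed in all 16 alternatives (adjusted p up to 0.0237 and 0.0460). Each TBX20 copy passed in 15 of 16. TBX2 passed in 5 of 16 and turned in 1, to a log2 fold change of -0.081 under the ribosomal rescaling. Its adjusted p ranged from 0.0282 under quantile normalization to 0.948 under the ribosomal rescaling. The further TMM scaling moved the median change of all tested rows to 0.53, and quantile normalization to 0.36. These scalings also moved the split of calls between ventricle and atrium, from 1792 and 1648 to 613 and 1728 after TMM and to 60 and 1740 after the ribosomal rescaling. Over all rows, calls numbered 3440 in the reported fit and 2341, 2106 and 1800 under the TMM, quantile and ribosomal settings, and 1877 and 1808 without atrium 1 or atrium 2.

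Deviations of same-numbered atria and ventricles correlated at -0.129, -0.165 and -0.116 in scallop, so same-numbered libraries did not deviate alike. Atrium 1 with ventricle 3 correlated at 0.105, atrium 2 with ventricle 1 at 0.137 and atrium 3 with ventricle 2 at 0.162. The remaining pairs lay between -0.025 and 0.018. The labels do not say whether same-numbered chambers came from the same animals. These correlations cannot decide it, with 3 libraries per chamber and rows selected for a chamber difference. With the replicate number as a block 4 of the 5 rows passed; TBX2 did not (adjusted p = 0.0904). The planned snail and species comparisons were not run: 0 snail rows carried these symbols. IRX4 and TBX10 rested on 283 and 112 ventricular reads, and their spread between ventricles (coefficients of variation of 89.3% and 88.3%) exceeded the counting error of any 1 library (up to 14.9% and 30.2%).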
